A study of Homo sapiens with 6 samples.

Results

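Plasminogen activators and the serpins that inhibit them were examined in 6 RNA sequencing libraries of a human breast cancer line that the labels call MB231 (read here as MDA-MB-231). The genes were 8 rows of the deposited table, found by symbol among 58735: the activators PLAT and PLAU, the urokinase receptor gene PLAUR, the zymogen gene PLG, and the inhibitor genes SERPINE2, SERPINB2, SERPINF2 and SERPINA5. They were chosen with this comparison known, because PLAT had been lower and SERPINE2 higher in the knockdown, so the differences between groups are given as a description, and what fits across all genes called among them supports nothing. The libraries were 3 labelled shNC with a wild type genotype and 3 labelled shPAK5 with a PAK5 knockdown, PAK5 being a serine/threonine kinase. The sources used here do not say which hairpins or vectors were used, whether the cells were a clone or a pool, or whether replicates were separate cultures, so the spread between libraries may be technical.

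Plasminogen is made mainly by the liver and circulates as an inactive zymogen. It is cleaved to plasmin, a protease of fibrin and of matrix proteins, by tissue-type activator (tPA, from PLAT) or urokinase (uPA, from PLAU), which a membrane-anchored receptor (uPAR, from PLAUR) holds at the cell surface. Serpins trap these proteases by offering a loop that is cut and then locks the enzyme: SERPINE2 (protease nexin-1) acts on thrombin, urokinase and tPA, SERPINB2 on urokinase and tPA, SERPINF2 (alpha-2-antiplasmin) on plasmin, and SERPINA5 (protein C inhibitor) on several proteases including urokinase. Urokinase and its receptor are known for their part in invasion by breast cancer cells.

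Values are FPKM (fragments per kilobase of exonic length, relative to library depth), and 15085168 to 18146091 reads per library stood behind them. PAK5 itself had 0 reads in all 6 libraries, which allows up to 0.0335 to 0.0403 FPKM per library, so the knockdown could not be checked. The markers went partly against the label. Of 8 mesenchymal markers VIM was at 149 ± 10.2, CD44 at 55.2 ± 2.06, AXL at 19.2 ± 0.0909 and ZEB1 at 2.58 ± 0.196 FPKM in shNC (SD, n = 3), but SPARC was at 0.174 ± 0.0384, FN1 at 0.0319 ± 0.0201, and CDH2 and TWIST1 had 0 reads. Of 5 epithelial markers the keratin genes KRT8, KRT18 and KRT19 were at 1006 ± 31.7, 874 ± 14.5 and 1410 ± 48.1 FPKM, EPCAM was at 109 ± 7.69 and CDH1 at 4.64 ± 0.180. The hormone receptor genes, absent in the labelled line, had at most 2 reads of ESR1 per library and 0 of PGR. Some markers differed between the groups as much as members did. CDH1 rose to 5.84 ± 0.0905 and EPCAM to 128 ± 2.72 FPKM in limma-voom (adjusted p = 0.0402 and 0.0457), where 0.881% of all genes passed upward, but neither passed in limma (adjusted p = 0.129 and 0.168). VIM, CD44 and AXL were at 164 ± 3.09, 60.9 ± 0.896 and 21.4 ± 0.859 FPKM in shPAK5, each above all shNC libraries, and passed in neither fit. KRT19, at 1465 ± 4.65, was also above all shNC libraries. Other markers were lower in shPAK5: KRT18 at 805 ± 15.5, below all shNC libraries, and KRT8 at 955 ± 15.6 and ZEB1 at 2.24 ± 0.196, with overlap. None of these passed either. Too low to be tested, SPARC was at 0.0669 ± 0.0319 and FN1 at 0.0863 ± 0.0223 FPKM in shPAK5. The part of these markers in the members' differences was not tested.

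The library shNC replicate 1 stood apart from the other shNC libraries and resembled the shPAK5 libraries in a trend with GC content. The 20% of genes with the highest transcript GC content differed from the 20% with the lowest by a median log2 difference of -0.11 in that library and of -0.10 to -0.05 in the 3 shPAK5 libraries, but by 0.21 and 0.13 in shNC replicates 2 and 3. Results are therefore given with and without that library, and with a correction for GC content. Without that library, the trend was positive in every shNC library left and negative in every shPAK5 library. Group and GC trend therefore cannot be told apart in that fit, and its calls are not a cleaner result.

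The inhibitor SERPINE2 was the most abundant member, and plasminogen itself was not detected. Over the 6 libraries SERPINE2 averaged 66.9 FPKM and ranked 529 among the 9996 protein-coding genes that averaged 1 FPKM or more. PLAUR followed at 16.5 FPKM and rank 2566. PLAU at 7.54 and PLAT at 7.47 FPKM came next, at ranks 4910 and 4942, close to the middle of that ranking. Their ranges over libraries overlapped, so that neither activator stood above the other, whereas PLAUR lay above both in every library and SERPINE2 above PLAUR. SERPINF2 averaged 2.29 FPKM and SERPINA5 0.385 FPKM. PLG and SERPINB2 had 0 reads in each library, which allows up to 0.0259 to 0.0312 FPKM for PLG and up to 0.0602 to 0.0723 FPKM for SERPINB2, for counting error only. Of the 8 members, 5 passed the filter on low values, and SERPINA5 with 15 to 31 reads per library, PLG and SERPINB2 did not.

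Genes whose known sources are other cell types were near 0. The summed FPKM of 6 hepatocyte markers lay between 0.0587 and 0.232 in shNC and between 0.0662 and 0.0893 in shPAK5. That of 5 endothelial markers, KDR and TEK with 0 reads among them, lay between 0.0692 and 0.0791 and between 0.0446 and 0.0931. For 5 fibroblast markers, with COL1A2 and PDGFRA at 0 reads, the sums were 0.408 to 0.453 and 0.379 to 0.487, and for 5 myeloid markers 0.136 to 0.186 and 0.216 to 0.333. Cells that make tPA, SERPINE2 or urokinase in tissues therefore left few reads of their defining genes in either group.

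Members differed in the sequence before their start sites. RefSeq promoter windows (GRCh38.p14) were matched for 6 of the 8 genes, but not for PLAT or SERPINF2. Parts of 3 windows are printed. These are PLAU, an activator gene that was lower in shPAK5, SERPINE2, the inhibitor gene that was higher, and SERPINB2, a member with no reads. Each is written 5′ to 3′ on the gene's strand, and capitals mark matches to 4 motifs, searched on both strands. The GC box was searched as the letters GGGCGG. The box of CCAAT was searched as those letters, and the TATA box as the letters TATAAA. An AP-1 site was searched as TGANTCA, and matches of different motifs did not overlap in these windows. For PLAU the printed bases are chr10:73911074-73911103 (plus strand), 58 to 29 bases before the start, for SERPINE2 chr2:224031479-224031728 (minus strand), 250 to 1 bases before, and for SERPINB2 chr18:63887455-63887699 (plus strand), 250 to 6 bases before.
PLAU: gagggagGGGCGGcgccgGGGCGGgccctg
SERPINE2: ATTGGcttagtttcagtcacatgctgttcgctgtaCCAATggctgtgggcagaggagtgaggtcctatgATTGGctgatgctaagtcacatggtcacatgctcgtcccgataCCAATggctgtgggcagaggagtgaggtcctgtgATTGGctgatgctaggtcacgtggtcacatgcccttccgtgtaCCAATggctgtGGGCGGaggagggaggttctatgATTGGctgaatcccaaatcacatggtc
SERPINB2: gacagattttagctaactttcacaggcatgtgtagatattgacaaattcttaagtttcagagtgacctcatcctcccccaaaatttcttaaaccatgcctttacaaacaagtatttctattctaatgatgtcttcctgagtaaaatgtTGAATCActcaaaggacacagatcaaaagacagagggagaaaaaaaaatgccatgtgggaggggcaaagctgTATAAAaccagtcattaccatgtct

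The 222 bases searched for PLAU were 68.9% G or C and held 3 GC boxes, 66, 51 and 40 bases before the start, while 39.2% of 35116 RefSeq windows of that length held at least 1. The SERPINE2 window was 53.2% G or C and held 7 CCAAT boxes and 1 GC box. A CCAAT box occurred in 32.0% of windows of its length and a GC box in 42.6%. It also held a repeat of 33 bases, beginning 217 and again 140 bases before the start. The SERPINB2 window was 37.1% G or C, with a TATA box 30 bases before the start (10.6% of windows held one) and an AP-1 site 102 bases before it (6.51%). Where a gene had several RefSeq starts, the one with the most annotated transcript starts close by was used. The annotation of all 3 genes also begins upstream of the start used, so other starts exist. For SERPINE2 it begins at 224039319, and the start used was 224031478. A match describes letters only, and which start sites the cells used was not measured, since the values are per gene.

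Between the groups, the tPA gene PLAT showed the most separated values of the 2 activators. It was at 8.36, 8.13 and 7.89 FPKM in shNC replicates 1 to 3 and at 6.67, 6.69 and 7.06 FPKM in shPAK5 replicates 1 to 3, from 870 to 970 reads in shNC and 705 to 801 in shPAK5. Each shPAK5 library lay below each shNC library. The means were 8.13 ± 0.233 and 6.81 ± 0.220 FPKM (SD, n = 3), a ratio of 0.838 and a difference of -0.23 ± 0.05 (SE) in log2(FPKM + 1). On that scale its spread within groups was 0.0386 (SD), against a median of 0.0809 for the 2392 genes within 0.5 log2 units of its level. PLAT was chosen for its difference in this contrast, which favours a small spread, so nothing is read from that comparison. PLAU, PLAUR, SERPINE2 and SERPINF2 lay closer to the medians of genes at their own levels. PLAT (ENSG00000104368) is on chromosome 8, minus strand, 42175233 to 42207724 (GRCh38), with 16 exon blocks, and no exon of another gene overlaps them.

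The urokinase gene PLAU was lower by a smaller margin. It was at 8.48, 7.41 and 8.14 FPKM in shNC and at 7.28, 6.85 and 7.08 FPKM in shPAK5. The groups did not overlap, but shNC replicate 2 lay only just above shPAK5 replicate 1. Means were 8.01 ± 0.547 and 7.07 ± 0.217 FPKM (SD, n = 3), with a ratio of 0.883 and a log2 difference of -0.16 ± 0.06 (SE). PLAU (ENSG00000122861) is on chromosome 10, plus strand, 73909177 to 73917497, and 916 of its 2950 exonic bases are overlapped by C10orf55 on the other strand. The sources used here do not say whether counting used strand, so reads in the overlap cannot be assigned with certainty. C10orf55 was given 1 to 3 reads per library.

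The urokinase receptor gene PLAUR showed overlapping groups. It was at 16.4, 17.6 and 16.7 FPKM in shNC and at 15.1, 15.9 and 17.1 FPKM in shPAK5, so that shPAK5 replicate 3 lay above 2 of the 3 shNC libraries. Means were 16.9 ± 0.617 and 16.0 ± 0.974 FPKM (SD, n = 3), and the log2 difference was -0.07 ± 0.06 (SE), with a 95% interval from -0.20 to 0.06. PLAUR (ENSG00000011422) is on chromosome 19, minus strand, 43646095 to 43670547. The precursor gene PLG (ENSG00000122194, chromosome 6, 160702238 to 160753315) had no read in either group, and no fold change can be given.

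**Figure D1:**
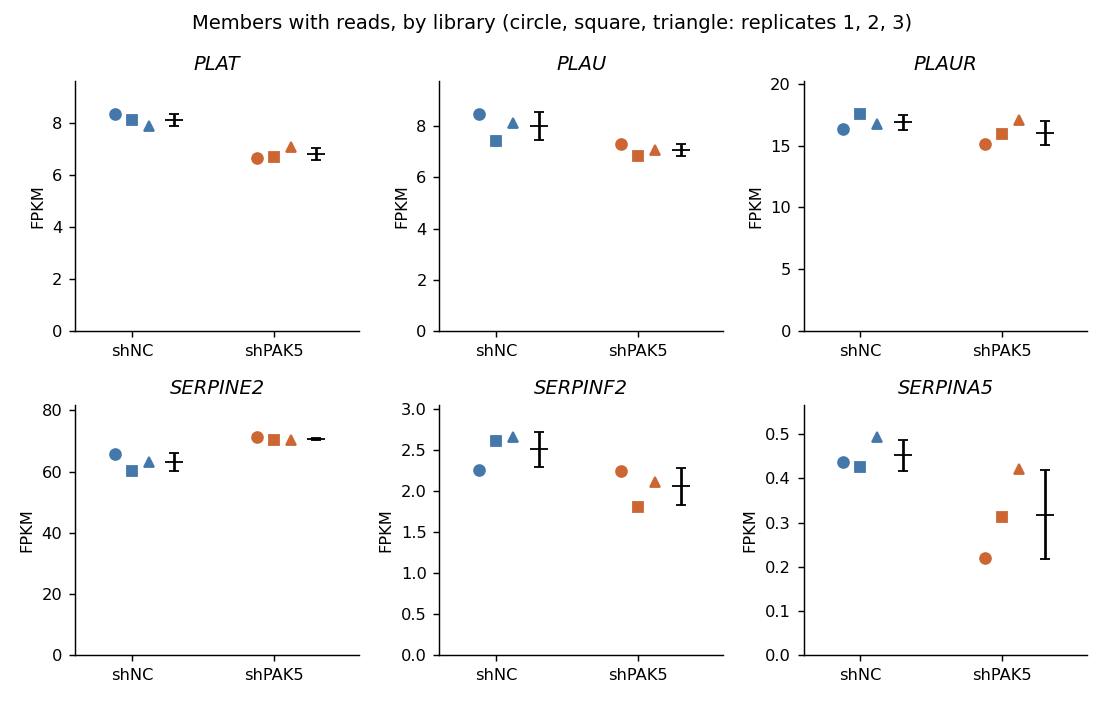
FPKM (vertical axes, from 0, with a separate scale per gene) of the 6 members with reads, in 3 shNC and 3 shPAK5 libraries, with circle, square and triangle for replicates 1, 2 and 3 and the bar for mean ± SD. SERPINE2 is higher in every shPAK5 library, PLAT and PLAU are lower in every one, and PLAUR overlaps.

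Among the inhibitors, SERPINE2 was the member that was higher in shPAK5. It was at 65.9, 60.1 and 63.2 FPKM in shNC and at 71.2, 70.4 and 70.4 FPKM in shPAK5, from 8972 to 11489 reads per library. All 3 shPAK5 libraries lay above all 3 shNC libraries, and they lay closer together. The means were 63.1 ± 2.90 and 70.7 ± 0.466 FPKM (SD, n = 3), with a ratio of 1.12 and a log2 difference of 0.16 ± 0.04 (SE). SERPINE2 (ENSG00000135919) is on chromosome 2, minus strand, 223975112 to 224039319, with 8891 exonic bases and no overlapping exon. Its longest transcript had a GC content of 41.0%, against 45.6% for PLAT, 54.0% for PLAU and 55.7% for PLAUR.

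The plasmin inhibitor gene SERPINF2 was at 2.26, 2.61 and 2.66 FPKM in shNC and at 2.25, 1.81 and 2.12 FPKM in shPAK5. The groups were separated only by the gap between shNC replicate 1 and shPAK5 replicate 1, which had 93 and 96 reads. Means were 2.51 ± 0.219 and 2.06 ± 0.226 FPKM (SD, n = 3), and the log2 difference was -0.20 ± 0.08 (SE), on a scale that understates the change of low genes. SERPINA5 was at 0.438, 0.426 and 0.493 FPKM in shNC and at 0.219, 0.313 and 0.421 FPKM in shPAK5, from 87 reads in all of shNC and 59 in all of shPAK5. It was below the filter and was not fitted. SERPINF2 (ENSG00000167711) lies on chromosome 17 from 1742836 to 1755268 and SERPINA5 (ENSG00000188488) on chromosome 14 from 94561442 to 94593120. The urokinase inhibitor gene SERPINB2 (ENSG00000197632, chromosome 18, 63871692 to 63903890) had no read.

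In limma on log2(FPKM + 1) over 11237 genes, none of the 5 members past the filter passed a Benjamini-Hochberg adjusted p of 0.05, where 0.116% of all genes did. At an unadjusted p under 0.05 there were 1 higher and 3 lower, where 9.52% and 7.46% of all genes were. A fit with limma-voom on reads recovered from the FPKM values called 0 of the 5, against 1.13% of all genes. Of the 5, 1 lay higher in shPAK5 without overlap between the groups and 3 lower, where 12.6% and 10.5% of all genes did, but nothing is read from these counts, since the members were chosen on this contrast. Their median log2 difference was -0.16, and that of all tested genes was 0.0038. In these bulk samples fewer cells of a kind and less RNA per cell cannot be told apart.

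Leaving out shNC replicate 1 or correcting for GC content changed the members unequally. PLAT kept its size, at -0.21 ± 0.05 (SE) without that library, -0.25 ± 0.04 with the GC correction and -0.24 ± 0.05 with both. SERPINE2 was at 0.19 ± 0.03 without the library and then passed in limma, where 5.53% of all genes passed upward. In that fit, group and GC trend cannot be told apart. The SERPINE2 difference was 0.09 ± 0.03 with the GC correction and 0.08 ± 0.03 with both, and it passed in neither. PLAU went to -0.12 ± 0.06 without the library, -0.12 ± 0.06 with the correction and -0.06 ± 0.06 with both. PLAUR was at -0.03 ± 0.05 with the correction, and SERPINF2 at -0.14 ± 0.07.

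**Figure D2:**
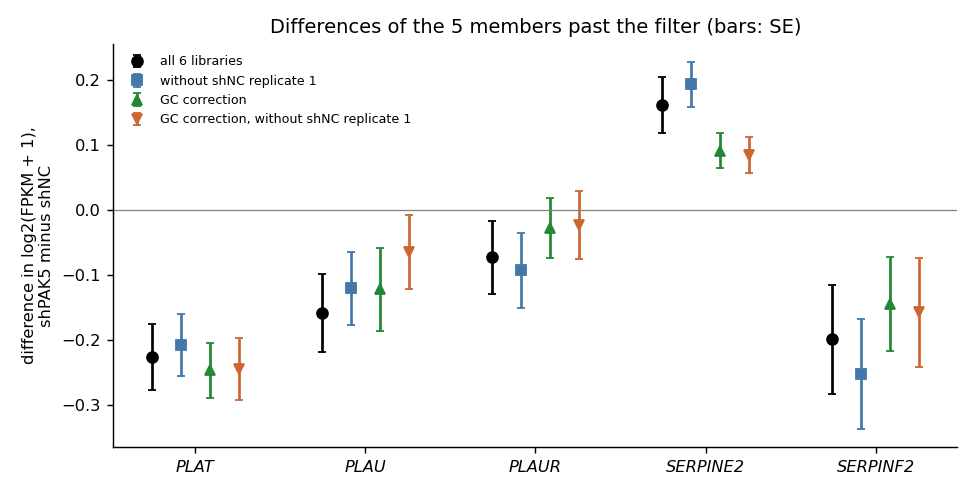
Difference in log2(FPKM + 1), shPAK5 minus shNC (vertical axis), for the 5 members past the filter, with bars for the SE. Symbols are the fit to all 6 libraries, the fit without shNC replicate 1, and both fits after a GC correction: PLAT stays between -0.25 and -0.21, and SERPINE2 goes from 0.16 to 0.08 with both changes.

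PLAT and SERPINE2 were set against the urokinase genes within each library, which removes the scaling between libraries. Against PLAU, the groups overlapped. The ratio of PLAT to PLAU was 0.985, 1.10 and 0.970 in shNC and 0.916, 0.976 and 0.998 in shPAK5. PLAT made up 50.4 ± 1.68% of the summed FPKM of the 2 activators in shNC and 49.0 ± 1.12% in shPAK5 (SD, n = 3). Against the receptor PLAUR, the ratio of PLAT was 0.510, 0.463 and 0.472 in shNC and 0.441, 0.421 and 0.414 in shPAK5, without overlap. In differences of log2(FPKM + 1), PLAT was at -0.07 relative to PLAU, at -0.13 with the GC correction and at -0.18 with the correction and without shNC replicate 1. Relative to PLAUR it was -0.15, -0.22 and -0.22.

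SERPINE2 separated from both urokinase genes. Its ratio to PLAU was 7.77, 8.11 and 7.77 in shNC and 9.77, 10.3 and 9.95 in shPAK5, and its ratio to PLAUR was 4.02, 3.42 and 3.78 and then 4.71, 4.43 and 4.13. To the sum of both activators it was 3.91, 3.87 and 3.95 in shNC and 5.10, 5.20 and 4.98 in shPAK5. The GC correction made these separations smaller. In differences of log2(FPKM + 1), SERPINE2 was at 0.32 relative to PLAU, at 0.21 with the correction and at 0.15 with the correction and without shNC replicate 1, and relative to PLAUR it was at 0.23, 0.12 and 0.11. SERPINE2 made up 95.5 ± 0.492% of the summed FPKM of the 4 inhibitor genes in shNC and 96.8 ± 0.288% in shPAK5 (SD, n = 3). These ratios combine members chosen for their directions and are given without a test.

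**Figure D3:**
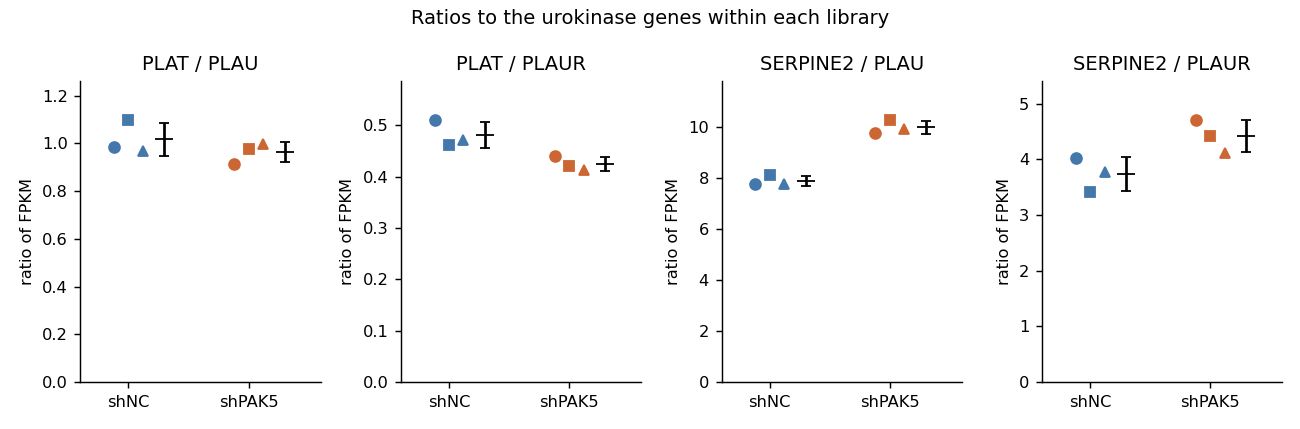
Ratios of FPKM within each library (vertical axes, from 0) of PLAT and SERPINE2 to the urokinase genes PLAU and PLAUR, with circle, square and triangle for replicates 1, 2 and 3 and the bar for mean ± SD. PLAT to PLAU overlaps between groups, and SERPINE2 to PLAU goes from 7.77 to 8.11 in shNC to 9.77 to 10.3 in shPAK5.

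The genes nearest to PLAT and SERPINE2 in pattern were sought among 6280 other protein-coding genes that averaged 5 FPKM or more, by the root mean square distance between centred log2(FPKM + 1) values over the 6 libraries. Nearest to PLAT were OXSM, a mitochondrial fatty acid synthesis enzyme, at a distance of 0.0236, EIF2B1, a subunit of a translation initiation factor, at 0.0237, and TRIM31, a ubiquitin ligase, at 0.0261, against a median of 0.135 over all genes. PLAU lay at 0.0683 and PLAUR at 0.0905 from PLAT. Nearest to SERPINE2 were SCD, a fatty acid desaturase, at 0.0098, PCYOX1, a prenylcysteine oxidase, at 0.0125, and RDH10, a retinol dehydrogenase, at 0.0145, with a median of 0.112. The nearest of so many genes must lie below the median, so the medians give scale only. The distances include the contrast on which both members were chosen, without a GC correction. Shared regulation was not tested.

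Around these members, 74 other genes of plasminogen activation were followed in 6 lists by role, of which 44 passed the filter. None passed in limma over all genes, 22 had a positive and 22 a negative difference, and their median was -0.0007 on the log2 scale. At an unadjusted p under 0.05 there were 3 higher and 3 lower of the 44, against 9.52% and 7.46% of all genes. In limma-voom 1 passed downward, where 0.249% of all genes did. It was FOSL1, an AP-1 subunit, at 26.1, 27.1 and 26.2 FPKM in shNC and 19.7, 20.1 and 22.1 FPKM in shPAK5 (limma adjusted p = 0.0718, limma-voom adjusted p = 0.0177). Without shNC replicate 1, limma called 3 of the 44 upward and 2 downward, against 5.53% and 2.81% of all genes. These were S100A10, HMGB1 and SPINT1, and LAMB3 and FOSL1. In that fit, group and GC trend cannot be told apart. FOSL1 and these genes were picked out with their values in view.

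All 6 genes for binding of plasminogen at the cell surface were measured above the filter, and none passed in limma or limma-voom. KRT8, whose protein binds plasminogen on carcinoma cells, was at 1006 ± 31.7 and 955 ± 15.6 FPKM in the 2 groups, shNC first (SD, n = 3). S100A10, which forms a plasminogen receptor with annexin A2, was at 726, 586 and 625 FPKM in shNC and 731, 723 and 723 FPKM in shPAK5 (limma adjusted p = 0.275), and the groups overlapped through shNC replicate 1. ENO1, a glycolytic enzyme that also binds plasminogen, was at 564 ± 10.5 and 539 ± 7.31 FPKM.

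Of 16 clearance receptors and partners of the urokinase receptor, 11 were tested and none passed. Both integrin genes named here encode partners in adhesion: ITGB1 was at 152 ± 6.54 and 157 ± 1.11 FPKM in the 2 groups, shNC first (SD, n = 3) and ITGA3 at 41.0 ± 3.14 and 39.5 ± 0.776. EGFR, a growth factor receptor that signals with uPAR, was at 59.5 ± 1.43 and 64.0 ± 1.31 FPKM (limma adjusted p = 0.2499). Of 11 proteases that activate pro-urokinase or cut its receptor, with their inhibitors, 6 were tested and none passed. The protease genes CTSB and ST14 were at 95.9 ± 2.25 and 101 ± 2.13 FPKM and at 40.3 ± 1.68 and 41.2 ± 1.48. The Kunitz inhibitor gene SPINT2 was at 68.6 ± 1.85 and 69.6 ± 2.07 FPKM. Its relative SPINT1, named after its values were seen, was at 5.59, 5.43 and 5.86 FPKM in shNC and 6.78, 6.87 and 6.92 in shPAK5 (limma adjusted p = 0.148).

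Other inhibitors of the activators, of plasmin or of fibrinolysis were mostly near 0, with 2 of 9 tested and neither past the threshold. THBD, encoding thrombomodulin, was at 14.4 ± 0.140 and 14.8 ± 0.268 FPKM in the 2 groups, shNC first (SD, n = 3). SERPINI1, encoding the tPA inhibitor neuroserpin, was at 1.76 ± 0.308 and 2.21 ± 0.406 FPKM, and CPB2, the third by level, had 5 reads in all of shNC and 1 in all of shPAK5. Of 18 substrates 5 were tested and none passed. The laminin gene LAMB3 was at 61.9 ± 5.16 and 55.7 ± 1.35 FPKM, and TGFB1, whose latent product plasmin can release, was at 31.7 ± 0.652 and 29.8 ± 0.677. Of the fibrinogen genes, FGG had 0 reads in all libraries. Besides FOSL1, none of the 14 factors known to act on promoters of the activators passed in either fit, with JUNB at 71.6 ± 2.34 and 72.6 ± 3.72, JUND at 45.7 ± 2.61 and 44.7 ± 1.92, and ETS2 at 31.4 ± 0.805 and 31.7 ± 1.17 FPKM.

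**Figure D4:**
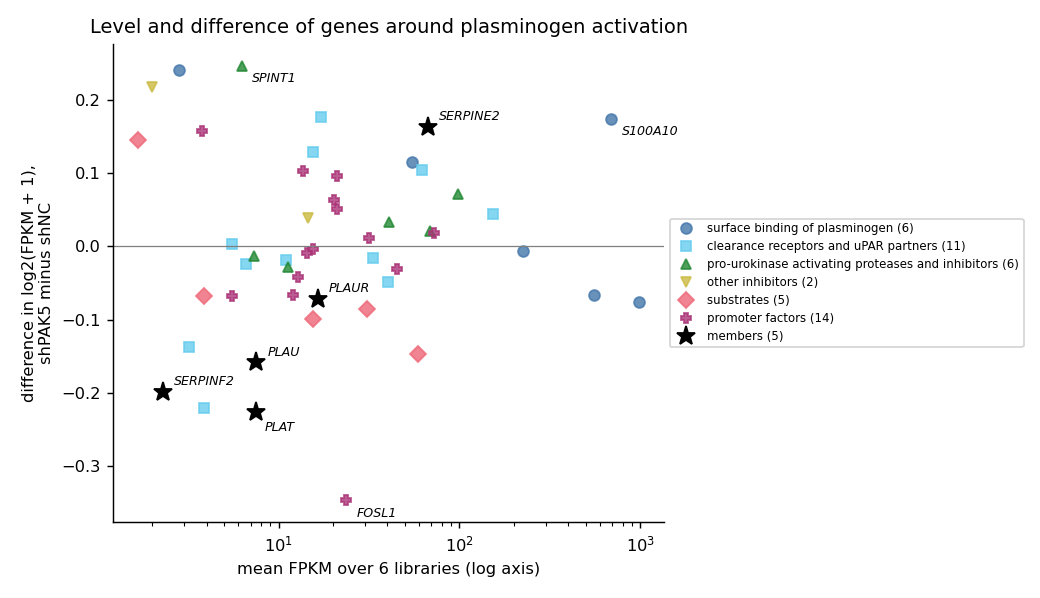
Mean FPKM over 6 libraries (horizontal, log axis) and difference in log2(FPKM + 1), shPAK5 minus shNC (vertical), for 44 tested genes around plasminogen activation in 6 lists and the 5 tested members as stars. The list genes lie on both sides of 0, 22 above and 22 below, with FOSL1 lowest.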

How the data were processed

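The authors deposited 1 table of FPKM per gene for 6 libraries, with coordinates and exonic lengths, per the file headers. Per the labels' protocols, the kit was NEBNext Ultra RNA. Not given in the sources used here are the aligner, the counter and the use of strand. The build in the submitters' processing notes is mm10 (mouse), but the rows are human: 58735 of 58735 gene IDs matched GENCODE 29 (GRCh38) in start and end. FPKM times length gave whole reads within 0.001 for 100% of values above 0. For values of 0 the upper limit is 3 reads, for counting error only.

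The fit was limma 3.58.1 in R 4.3.3 (eBayes with trend), with only the group as a term, of log2(FPKM + 1) in the 11237 genes that averaged 1 FPKM or more, with Benjamini-Hochberg adjustment. Members and lists were chosen with earlier results of these data known. Named were all members and, of each list, the called genes and the 3 most abundant. The values of 1 gene that this rule names are not reported here. For the GC correction, a loess curve (span 0.3) of each library's deviations on the GC content of the longest transcript was removed, which was chosen after seeing the data. Promoter bases inside a gene's own annotated exons were left out, and of PLAU, whose window lies in an exon of C10orf55, 30 bases are printed. Figures were drawn with matplotlib 3.10.9.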

Additional observations from a re-analysis of the deposited data

How the results depend on the processing

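No member passed in limma or limma-voom with all 6 libraries under any setting tried, and leaving out single libraries gave 0 to 1 members and 0 to 5 other plasminogen genes called. The count over all genes, 13, moved far more: it was 12 with a pseudocount of 0.1, 7 with no filter, 31 at a mean of at least 5 FPKM, 20 with quantile normalization, 127 in limma-voom, 58 with the GC correction, and 2 to 937 without single libraries, the highest without shNC replicate 1. With the GC correction and without that library it was 28. Without the correction, the fit that leaves out that library cannot tell group from GC trend. Of the other plasminogen genes, 1 was called at 5 FPKM and in limma-voom, FOSL1, and 1 with the GC correction without shNC replicate 1, S100A10. The replicate block, whose numbers come from the titles, left 2 calls over all genes and no member. Deviations of same-numbered libraries correlated at 0.0654, -0.0239 and 0.0090, so the numbers were not taken as pairs. The 5 fitted members kept their sign under each of 14 alternatives, or 13 for SERPINF2, which the filter at 5 FPKM removed: PLAT ranged from -0.26 to -0.21, PLAU from -0.21 to -0.06, PLAUR from -0.12 to -0.02, SERPINE2 from 0.08 to 0.19 and SERPINF2 from -0.29 to -0.14 on the log2 scale. The difference moved by more than the SD within groups in 2 alternatives for SERPINE2 and in 1 for PLAU. The alternatives reuse the same libraries for members chosen on this contrast, so the kept signs support nothing. Depth limits SERPINF2, with 72 to 104 reads per library, and SERPINA5.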
